A study of Mus musculus with 2 samples.

Results

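The genes described here encode regulators of G-protein signalling (RGS proteins) and were measured in B cells sorted from mouse peripheral lymph nodes. They are Rgs1, Rgs2, Rgs3, Rgs10, Rgs12, Rgs13, Rgs14, Rgs16, Rgs18 and Rgs19. They were taken as every non-control probe whose gene name in the array files is one of these 10 names, which gave 17 of 41174 probes, or 10 of 17686 genes tested. They were selected on measured values, the ratios of knock-out over wild-type on these arrays, with Rgs1 and Rgs2 known to be lower and Rgs13 higher. Their ratios are therefore a description, and no test of them is given as support. The knock-out mice carried the targeted Ccr7 allele of strain B6.129P2(C)-Ccr7tm1Rfor/J, and the wild-type mice were C57BL/6J. No treatment is named, and age and sex are not given in the sources used here. Each of 2 two-colour arrays held 1 knock-out and 1 wild-type pool, and each pool combined the RNA of 3 separately sorted samples. Dyes were swapped, with Cy5 marking the knock-out on array 1 and Cy3 marking it on array 2. A pool is a bulk sample, so fewer cells of a type and less RNA per cell cannot be told apart.

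RGS proteins end the signal of receptors that couple to heterotrimeric G proteins. They bind the active, GTP-bound alpha subunit and speed up GTP hydrolysis, which lets the subunits reassemble. In B cells this limits responses to chemokines and other chemoattractants, among them the ligands of Ccr7, a receptor that couples to Gi and guides lymphocytes into and within lymph nodes.

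All 12 genes of the B cell identity list passed the filter on dim probes described below, among them Ms4a1, Cd79a and Pax5. The targeted gene Ccr7 was lower in the knock-out pools by log2 ratios (always knock-out over wild-type) of -1.11 on array 1 and -0.74 on array 2 (mean -0.93 ± 0.15 SE, n = 2). Its limma adjusted p over all genes was 0.143, and the mapped interval of its probe was not compared with the deleted part of the gene. Spots well above background made up 68.2% and 58.4% for the knock-out on arrays 1 and 2, against 63.1% and 68.8% for the wild-type, and 0 spots were saturated. All 17 Rgs probes were well above background in both channels of both arrays. Levels below are log2 intensities after background correction, loess within each array and quantile normalisation of the mean log2 intensity between arrays. They compare genotypes for 1 probe and not probes with each other.

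Rgs1, Rgs2 and Rgs13 carried the largest mean ratios of the family, and the array oligonucleotides that read them are shown so that these signals can be traced to their targets. All 4 map, on mm8, to the minus strand of chromosome 1.
Rgs1, chr1:146007050-146007109: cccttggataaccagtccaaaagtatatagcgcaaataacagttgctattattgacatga
Rgs2, brighter probe, chr1:145763381-145763440: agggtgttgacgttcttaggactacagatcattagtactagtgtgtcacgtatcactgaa
Rgs2, dimmer probe, chr1:145762315-145762374: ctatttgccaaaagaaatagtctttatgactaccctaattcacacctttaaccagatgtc
Rgs13, chr1:145901579-145901638: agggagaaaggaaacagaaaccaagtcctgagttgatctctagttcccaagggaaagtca

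Rgs1, a small RGS protein that restrains chemokine-driven movement of lymphocytes, was lower in knock-out B cells. Its level was 6.54 and 6.98 in the knock-out pools, against 7.84 and 7.85 in the wild-type pools. Both knock-out values lay below both wild-type values, and the wild-type pools differed little from each other. The log2 ratios were -1.30 and -0.88 (mean -1.09 ± 0.30 SD, n = 2), or 2.13-fold lower. The signal was dim. After subtraction of the local background alone it was 56.9 and 66.7 scanner units in the knock-out, against 215 and 204 in the wild-type. The scanner program's own log ratio was larger in size, at -2.46 and -1.92 (mean -2.19, or 4.56-fold lower).

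Rgs2, known for acting on the alpha subunit Gq and for its rapid induction in activated lymphocytes, was lower in the knock-out by both of its probes. The brighter probe had levels of 14.19 and 14.04 in the knock-out, against 15.32 and 15.03 in the wild-type. The dimmer probe had levels of 7.27 and 7.11 in the knock-out, against 8.23 and 8.07 in the wild-type. By either probe the genotypes did not overlap. The log2 ratios were -1.13 and -0.99 by the brighter probe (mean -1.06 ± 0.10 SD, n = 2, or 2.09-fold lower) and -0.96 on each array by the dimmer probe (1.94-fold lower). The brighter probe was bright enough that its value had been scaled up from a second, low-gain scan in both channels of array 1 and in the wild-type channel of array 2, and the dimmer probe was not scaled up in any channel. The lower signal was thus present with and without scaled-up values. The scanner program's log ratio gave -1.43 and -1.60 for the dimmer probe.

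Rgs13, an RGS protein known from germinal centre B cells and mast cells, was higher in knock-out B cells. Its level was 8.84 and 9.59 in the knock-out, against 7.80 and 8.86 in the wild-type. Within each array the knock-out was higher, but the pools of array 2 were brighter in both genotypes, so that the knock-out value of array 1 lay just below the wild-type value of array 2. The log2 ratios were 1.05 and 0.73 (mean 0.89 ± 0.22 SD, n = 2), or 1.85-fold higher.

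**Figure D1:**
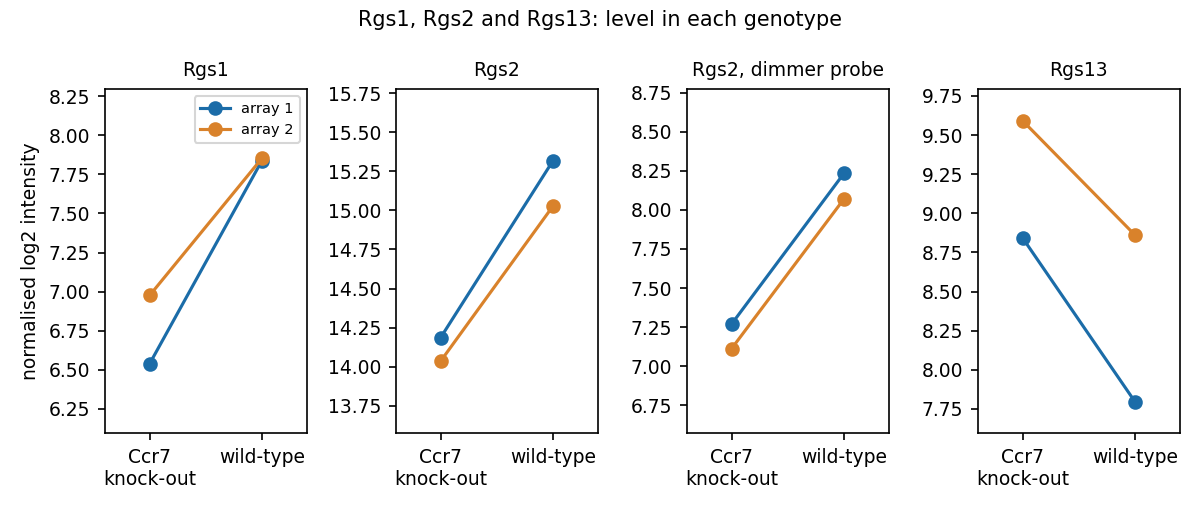
Normalised log2 intensity of Rgs1, both probes of Rgs2, and Rgs13 in the Ccr7 knock-out and wild-type pools, with a line for each array and an axis of the same span in each panel. Both lines climb from knock-out to wild-type for Rgs1 and Rgs2 and descend for Rgs13, where the arrays also differ in level.

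The other small RGS proteins differed less. Rgs3, which has short forms and longer forms with added protein interaction domains, was read by 5 probes annotated to 2 RefSeq transcripts. Each probe was higher in the knock-out on both arrays, with means from 0.11 to 0.34 on the log2 scale. The brightest had log2 ratios of 0.10 and 0.58 (mean 0.34 ± 0.34 SD, n = 2), and the only probe of the second transcript had 0.42 and 0.13. The SD of the brightest probe was about as large as its mean. Rgs16, a chemokine-response inhibitor induced by activation, was dim and had log2 ratios of 0.24 and -0.16 (mean 0.04 ± 0.28 SD, n = 2). Rgs18, best known from platelets and megakaryocytes, had log2 ratios of 0.11 and -0.07 by its brighter probe and 0.17 and -0.06 by its dimmer one. Rgs16 and Rgs18 thus had opposite signs on the arrays, by every probe.

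Rgs10, Rgs12 and Rgs14 belong to a subfamily that acts mainly on Gi. Rgs12 and Rgs14 also carry Ras-binding domains and a GoLoco motif, which binds the inactive alpha subunit. Rgs12 had levels of 10.21 and 9.15 in the knock-out, against 9.53 and 8.94 in the wild-type. Its log2 ratios were 0.69 and 0.21 (mean 0.45 ± 0.34 SD, n = 2), higher in the knock-out on both arrays but unequal in size. Rgs14 had levels of 13.84 and 13.47 in the knock-out, against 14.05 and 13.65 in the wild-type. Its log2 ratios of -0.22 and -0.19 (mean -0.20 ± 0.02 SD, n = 2) were small and close to each other after loess. They were 0.03 and -0.97 with median centring and 0.08 and -1.45 with no within-array normalization, with means of -0.47 and -0.69. Its knock-out value of array 1 was scaled up from the low-gain scan. Rgs10, a protein known to dampen activation of microglia, had log2 ratios of 0.34 and -0.05 (mean 0.15 ± 0.28 SD, n = 2). Rgs19, also called GAIP for its binding to Gi alpha subunits, gave different signs by its 2 probes. The brighter one, scaled up from the low-gain scan in 3 of 4 channels, had -0.23 and 0.07, and the dimmer one had 0.25 and 0.09.

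**Figure D2:**
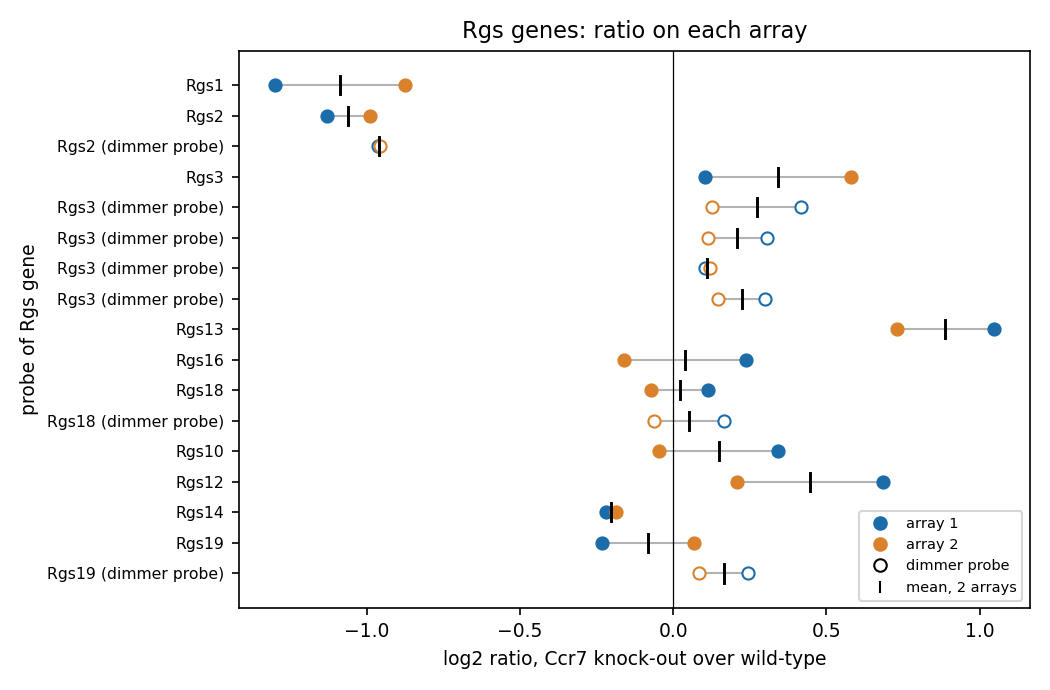
Log2 ratio (Ccr7 knock-out over wild-type) for all 17 Rgs probes, with a point for each array, a black bar at the mean of 2 arrays, and hollow points for the dimmer probes of a gene. Rgs1 and both Rgs2 probes lie near -1, Rgs13 near 0.9, and the other probes between -0.23 and 0.69.

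By their brightest probe, 3 of 10 genes (Rgs1, Rgs2 and Rgs14) were lower in the knock-out on both arrays, where 30.0% of all genes tested were. Another 3 (Rgs3, Rgs12 and Rgs13) were higher on both, where 24.2% of all genes were, and 4 had opposite signs, against 45.8% of all genes. The median log2 ratio was 0.03 over the 10 genes and -0.01 over all genes. Rgs1 and Rgs2 were at least 1.5-fold lower on both arrays, as were 0.368% of all genes, and Rgs13 was at least 1.5-fold higher on both, as were 0.254%. The levels of the pools did not overlap for 2 genes, Rgs1 and Rgs2, with the knock-out lower, where this held for 13.3% of all genes. By the brightest probe, non-overlap with the knock-out higher held for 0 Rgs genes and 9.56% of all genes. Among dimmer probes it held for the Rgs3 probe of the second transcript (10.87 and 10.47, against 10.45 and 10.34 in the wild-type). It also held, narrowly, for another dimmer Rgs3 probe (6.80 and 6.90, against 6.49 and 6.79). Since these ratios chose the genes, nothing is read from the counts. By limma's fit over all genes, 0 of 10 passed an adjusted p of 0.05, where 0.102% of all genes did (0.0679% higher and 0.0339% lower in the knock-out). At an unadjusted p of 0.05, 4 of 10 passed, where 9.11% of all genes did. With an intensity trend and robust prior 3 of 10 passed the adjusted threshold (0.413% of all genes), and without scaled-up probes 3 of 9 (0.758% of all genes), in both cases Rgs1, Rgs2 and Rgs13. With no filter on dim probes Rgs2 alone passed (0.0689% of 27583 genes). These passes come from the same ratios that chose the genes, so they are not read as support either.

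**Figure D3:**
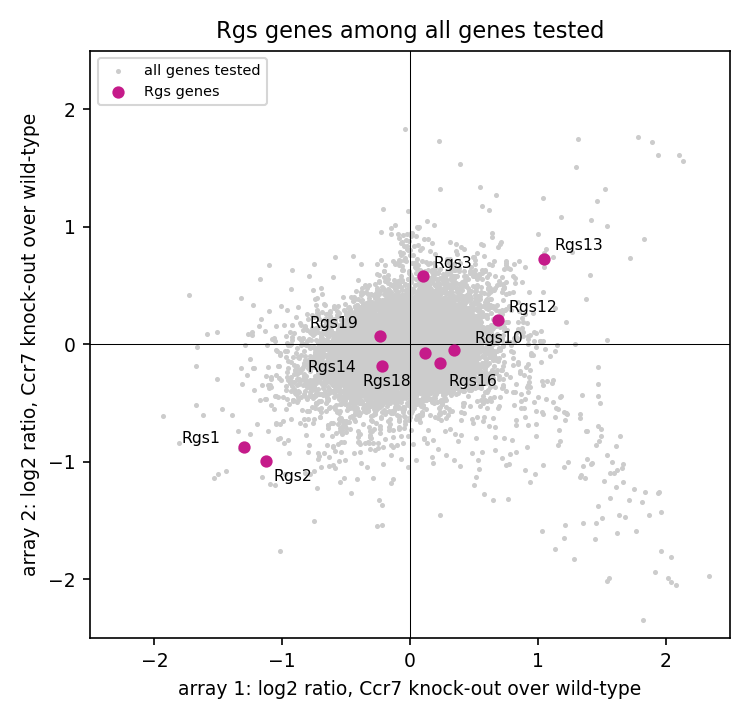
Log2 ratio (Ccr7 knock-out over wild-type) on array 1 (horizontal) and array 2 (vertical) for all 17686 genes tested in grey and the 10 Rgs genes in colour, with 3 genes beyond the axis limits of 2.5. Rgs1 and Rgs2 lie at the lower left edge of the cloud, Rgs13 at the upper right, and the other Rgs genes within or at the rim of its dense part.

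The remaining Rgs genes on the array were mostly not measurable. Probes were present for 10 of them, and Rgs4, Rgs5, Rgs6, Rgs7, Rgs8, Rgs9, Rgs17, Rgs20 and Rgs22 did not pass the filter, which asks for 1 genotype above background on both arrays. Rgs4 and Rgs5, known from pericytes and other stromal cells, were not well above background in any channel by either of their probes. Rgs11 passed, with log2 ratios of 0.03 and 0.15 (mean 0.09 ± 0.13 SE, n = 2, limma adjusted p 0.938).

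Several of the genes are close neighbours. Probes of Rgs2, Rgs13, Rgs1 and Rgs18 lie in this order within 753 kb of chromosome 1 on mm8, all on the minus strand. The brightest probes are 138 kb apart between Rgs2 and Rgs13, 105 kb between Rgs13 and Rgs1, and 508 kb between Rgs1 and Rgs18. In RefSeq's GRCm38.p6 annotation Rgs21 stands between Rgs1 and Rgs18. It has no probe of that name here. Along the cluster the mean log2 ratios were -1.06 for Rgs2, 0.89 for Rgs13 and -1.09 for Rgs1, while Rgs18 had opposite signs on the arrays. Rgs13, with the highest ratio of the family, thus lies between the genes with the lowest.

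Of other genes tested within 1 Mb of the cluster, 6 were found, with mean log2 ratios from -0.64 to 0.17. By limma 0 of 6 passed an adjusted p of 0.05, where 0.102% of all genes did. At an unadjusted p of 0.05, 1 passed, where 9.11% of all genes did. Cdc73, Glrx2, Ro60 and Uchl5, which lie on the Rgs2 side of the cluster, had mean log2 ratios of 0.10, 0.03, 0.17 and 0.02, and limma adjusted p from 0.788 to 0.989. AK037786, on the same side, was lower in the knock-out at -0.27 and -0.21 (mean -0.24 ± 0.13 SE, n = 2, limma adjusted p 0.647). The lowest value, -0.55 and -0.74 on the arrays (mean -0.64 ± 0.13 SE, n = 2, limma adjusted p 0.229), came from the unnamed transcript TC1624163. Its probe lies at 145764920 to 145764979 on chromosome 1 of mm8, on the same strand as the Rgs2 probes and 1.48 kb from the brighter one. It was the only other probe between Rgs2 and Rgs18. Whether it is a further reading of Rgs2 was not tested. The 1 neighbour that passed at an unadjusted p was this transcript, and without it the means ranged from -0.24 to 0.17.

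**Figure D4:**
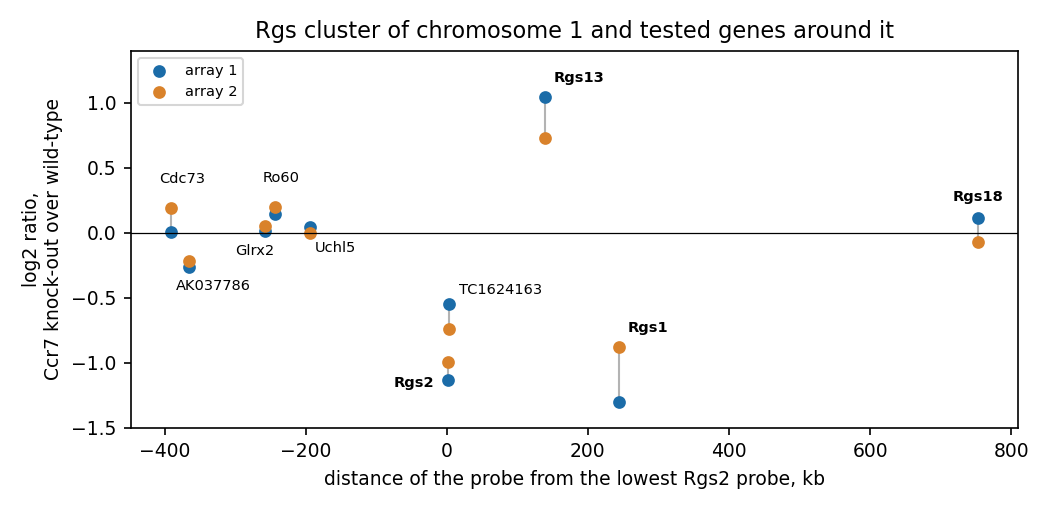
Log2 ratio (Ccr7 knock-out over wild-type) on each array for the 4 clustered Rgs genes (bold) and the 6 other genes tested within 1 Mb, against the distance in kb of their probes from the lowest Rgs2 probe. Rgs2, the unnamed transcript beside it and Rgs1 lie below 0 on both arrays, Rgs13 lies above 0, and the 5 genes to the left lie between -0.27 and 0.20.

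Promoter windows of 300 bases, from 250 before to 50 after a gene's start, were taken from RefSeq on GRCm38.p6 and matched 7 of the 10 genes by symbol with 11 windows. Rgs1, Rgs14 and Rgs18 had no window, so their promoters were not searched. The windows of Rgs2 and Rgs13 are printed because these neighbours had opposite directions. Capitals mark the motifs found among those searched on both strands: the cyclic AMP response element TGACGTCA and its half-site TGACG, which the full element contains, the AP-1 site TGANTCA, the EGR site GCGNGGGCG, the TATA box TATAAA, the CArG box and the NF-kB site.
Rgs2, minus strand, chr1:144004100-144004399: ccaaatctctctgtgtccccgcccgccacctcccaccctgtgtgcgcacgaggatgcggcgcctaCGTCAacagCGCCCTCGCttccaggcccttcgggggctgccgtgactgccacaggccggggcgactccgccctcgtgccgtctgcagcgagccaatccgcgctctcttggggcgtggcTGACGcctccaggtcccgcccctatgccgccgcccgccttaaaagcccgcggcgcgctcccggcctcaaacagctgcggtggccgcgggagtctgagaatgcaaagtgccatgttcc
Rgs13, minus strand, chr1:144177323-144177622: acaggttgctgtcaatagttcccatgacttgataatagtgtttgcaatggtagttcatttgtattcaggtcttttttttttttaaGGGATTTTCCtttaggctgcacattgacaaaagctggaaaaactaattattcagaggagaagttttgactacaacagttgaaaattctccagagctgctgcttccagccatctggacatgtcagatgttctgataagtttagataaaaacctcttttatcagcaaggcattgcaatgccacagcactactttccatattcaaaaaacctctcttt

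The Rgs2 window was 70% G and C and held 2 half-sites of the cyclic AMP response element and 1 EGR site on the opposite strand. The Rgs13 window was 36.7% G and C and held 1 NF-kB site. Among 32851 windows of this length in the table, 20.8% held the half-site, 5.55% the EGR site and 4.51% the NF-kB site. Among the 11 Rgs windows, the half-site was present in 2 (Rgs2 and Rgs12), the EGR site in 2 (Rgs2 and Rgs19), the TATA box in 2 of Rgs3 (13.6% of all windows), the AP-1 site in 1 of Rgs12 (7.81%) and the NF-kB site in the Rgs13 window alone. The full cyclic AMP response element (1.79% of all windows) and the CArG box (1.63%) were in none of the 11. A match of letters is not evidence of binding.

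The genes whose pair of ratios lay nearest to those of Rgs1, by Euclidean distance over 2 arrays, were the chemokine gene Ccl3 (-1.33 and -0.89), Ciart (-1.34 and -0.74) and the basement membrane gene Nid1 (-1.20 and -0.68), at distances of 0.039, 0.146 and 0.224. Nearest to Rgs2 were the histone gene H2bc4 (-1.16 and -1.13), Upb1 (-0.98 and -1.11) and Lysmd2 (-0.95 and -0.92), at 0.146, 0.192 and 0.195. Nearest to Rgs13 were Sypl (1.05 and 0.76), Emp2 (1.04 and 0.78) and the cytokine receptor gene Lifr (1.12 and 0.74), at 0.029, 0.051 and 0.074. Likeness over 2 values is weak and carries no test.

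Genes that work with RGS proteins were set beside the family, from lists chosen with earlier results of these data known. Among 12 G-protein alpha subunit genes tested, which span more classes than RGS proteins act on, 0 passed limma's adjusted p of 0.05. On both arrays 3 were higher and 4 lower in the knock-out (24.2% and 30.0% of all genes), and the median log2 ratio was -0.04. The most different were Gnal, the olfactory-type stimulatory subunit (-1.02 and -0.09), and Gna11, a subunit of the Gq class (-0.30 and -0.20). Among 10 beta and gamma subunit genes 0 passed and the median was 0.09, with Gngt2 at 0.32 and 0.63 and Gng10 at 0.29 and 0.28. Among 19 other RGS-domain proteins and partners 0 passed and the median was -0.07. Gnb5, the beta subunit that pairs with RGS proteins of another subfamily, had 0.19 and 0.77, and Ric8a, a chaperone and exchange factor of alpha subunits, had -0.67 and -0.19.

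Among 26 chemoattractant receptor genes tested 0 passed. On both arrays 13 were higher and 4 lower in the knock-out (24.2% and 30.0% of all genes), and the median log2 ratio was 0.11. Beside Ccr7 the most different was Gpr18, a lipid-sensing receptor of lymphocytes, at 0.51 and 0.68 (mean 0.59 ± 0.13 SE, n = 2, limma adjusted p 0.241). Among 19 effector genes 0 passed, 6 were higher and 6 lower on both arrays (24.2% and 30.0% of all genes), and the median was 0.00. Prex1, a Rac exchange factor that senses beta-gamma subunits, had -0.68 and -0.05, and the adenylyl cyclase gene Adcy7 had -0.21 and -0.44. Of the 86 genes tested in these 5 lists, 0 passed, where 0.102% of all genes did. An intensity trend and robust prior, or leaving out scaled-up probes, each added 1 of these genes, Ccr7. At an unadjusted p of 0.05, 13 of the 86 passed by limma, where 9.11% of all genes did. They were 8 of 26 chemoattractant receptor, 2 of 19 RGS-domain and partner, 1 of 12 alpha subunit, 1 of 10 beta and gamma subunit and 1 of 19 effector genes.

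Rgs1 and Rgs2 are known as early response genes of activated lymphocytes, and Rgs13 as a gene of germinal centre B cells, so lists of both kinds were read as well. Among 23 immediate early genes tested, Klf4, a Krüppel-like transcription factor, fell, with log2 ratios of -1.53 and -1.14 for knock-out over wild-type (mean -1.34 ± 0.15 SE, n = 2, limma adjusted p 0.049). Klf4 did not pass in 9 of 12 alternatives of the processing. In all, 13 of the 23 were lower and 1 higher on both arrays, where 30.0% and 24.2% of all genes were, and the median log2 ratio was -0.32, against -0.01 over all genes. Among 14 germinal centre genes tested 0 passed, 10 were higher and 1 lower in the knock-out on both arrays (24.2% and 30.0% of all genes), and the median was 0.37. Mybl1, also of this list, was on the array but did not pass the filter on dim probes. Mki67, a proliferation marker that is not particular to germinal centre cells, had 1.13 and 0.31. At an unadjusted p of 0.05, limma passed 11 of the 23 immediate early and 8 of the 14 germinal centre genes, where 9.11% of all genes passed.

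Several of these Rgs genes are also expressed by other blood and stromal cells, whose markers gave the following values. Of 17 T cell markers, 14 were above the filter and 0 passed the adjusted threshold. Among them 7 were lower and 2 higher in the knock-out on both arrays (30.0% and 24.2% of all genes), with a median log2 ratio of -0.19. Their summed normalised intensity was 17144 and 12503 in the knock-out, against 15397 and 14925 in the wild-type, higher in the Cy5 channel of each array. Thy1 had -0.93 and -0.63, and Ccl5 had -0.12 and -2.67. Of 17 myeloid and dendritic cell markers on the array 14 were above the filter, with a median of 0.04 and a sum of 32540 and 35574 in the knock-out, against 35497 and 41686 in the wild-type. Adgre1 had -0.29 and -1.14 and S100a9 0.92 and 0.00. Of 13 platelet and megakaryocyte markers, 8 were below the filter, among them Pf4, Ppbp, Itga2b and Gp9. The sum of the other 5 was 8640 and 7177 in the knock-out, against 6809 and 5210 in the wild-type. Itgb3, which other cells express too, had 0.38 and 0.52.

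NK cell markers had 6 of 10 above the filter, a median of 0.06 and a sum of 1756 and 1363 in the knock-out, against 1463 and 1255 in the wild-type. Ncr1, Gzma, Gzmb and Eomes did not pass the filter, Klrd1 had -0.41 and -0.74, and Tbx21 had 0.66 and 0.48. Stromal markers had 12 of 17 above the filter and a median of 0.08, and Pdgfrb, Pdgfra, Des, Emcn and Pdpn did not pass. Their sum was 24039 and 36196 in the knock-out, against 28145 and 24024 in the wild-type. This stromal sum was higher in the Cy3 channel of each array, so its direction followed the dye and not the genotype. Col1a2 had 0.54 and 0.24. Cxcl12 passed the filter through the knock-out pools alone and was not well above background in either wild-type pool. Its knock-out mean lay 1.38-fold above a floor for the wild-type (limma adjusted p 0.299). That floor was the wild-type's own signal or the lowest signal well above background, whichever is higher. Signals not well above background can exceed it, so 1.38-fold is not a strict lower limit. In the B cell identity list 0 of 12 passed, the median was 0.13, and Pax5 had -0.79 and -0.86 and Cd72 0.52 and 0.55. The sum of its 12 genes was 640953 and 461385 in the knock-out, against 416287 and 629983 in the wild-type. On each array this sum was higher in the Cy5 channel, so its direction followed the dye and not the genotype. Of the 12 genes, 10 had values scaled up from the low-gain scan. No marker in these lists passed limma's adjusted p of 0.05. At an unadjusted p of 0.05, 6 of 14 T cell, 2 of 14 myeloid, 3 of 6 NK, 1 of 5 platelet, 2 of 12 stromal and 2 of 12 B cell genes passed, where 9.11% of all genes did. The part of these cells in the Rgs ratios was not tested.

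The ratios were computed in 9 ways, some of which repeat each other for a gene. The scanner program's log ratio and the deposited value table hold nearly the same values, and for a gene with 1 probe that was not scaled up, such as Rgs1 or Rgs13, the mean of all probes and the omission of scaled-up probes change nothing. Over distinct pairs of ratios, Rgs1 was lower on both arrays in 6 of 6 and Rgs2 in 9 of 9, with mean log2 ratios from -2.19 to -1.01 for Rgs1 and from -1.55 to -0.96 for Rgs2. Rgs13 was higher on both arrays in 5 of 6, with means from 0.48 to 1.12. The exception was no within-array normalization, where it had 1.14 and -0.19 while the median of all genes moved to -0.39, so that its mean was 0.87 above that median. Median centring moved the median of all genes to -0.17. Rgs14 was lower on both arrays in 4 of 6, Rgs3 higher on both in 5 of 7 and Rgs12 in 4 of 6. Rgs10, Rgs16 and Rgs18 had opposite signs on the arrays in each of these ways, and the sign of their mean changed with the processing. With no within-array normalization it was -0.35 for Rgs10, -0.09 for Rgs16, -0.49 for Rgs18 and -0.18 for Rgs3. With median centring it was -0.13 for Rgs10 and -0.27 for Rgs18. The mean of Rgs19 became 0.17 without scaled-up probes and 0.04 as the mean of its probes.

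**Figure D5:**
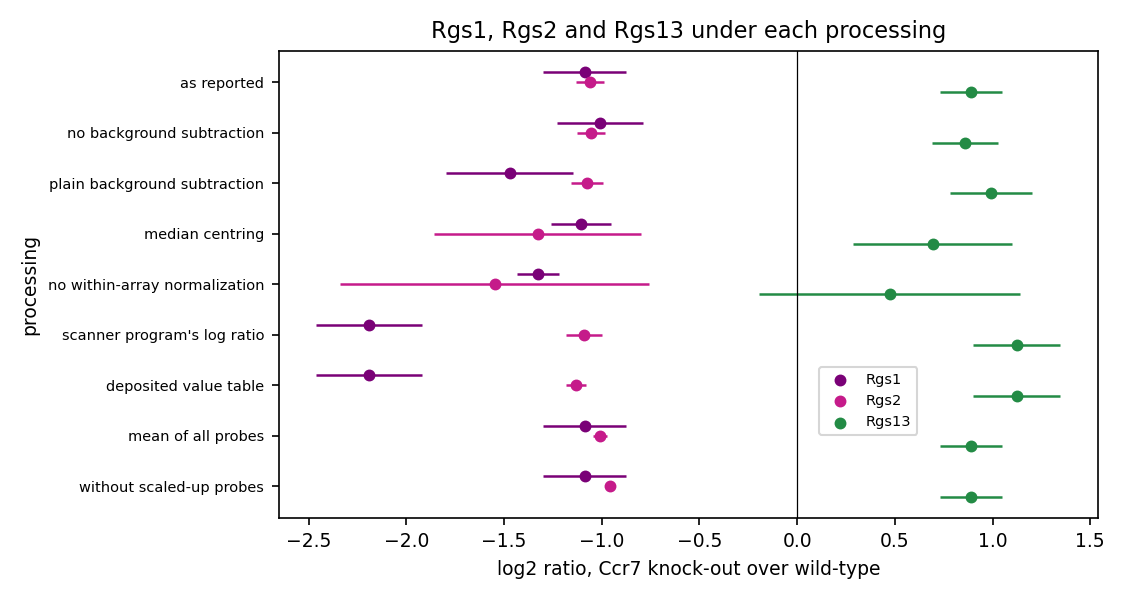
Mean log2 ratio (Ccr7 knock-out over wild-type) (points) and the range of the 2 arrays (lines) for Rgs1, Rgs2 and Rgs13 under each of 9 ways of computing the ratio, some of which give Rgs1 and Rgs13 the same values by construction. Rgs1 and Rgs2 stay below 0 in all, Rgs1 lies furthest from 0 with the scanner program's log ratio and the deposited value table, and the line of Rgs13 crosses 0 with no within-array normalization.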

How the data were processed

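The members and gene lists were chosen with earlier results of these data known. The authors deposited spot intensity values; per the submitters' processing notes they come from Agilent Feature Extraction 9.5.3.1. The deposited scanner files also hold log10 ratios (Cy5 over Cy3) and flags for background, saturation and low-gain scaling. The deposited value table holds log2 ratios. It equalled the log10 ratio turned to log2 knock-out over wild-type (tolerance 0.001) at 42512 and 42515 of 43379 spots, with medians of 0, and how else it was made is unstated. Input was 20 ng of RNA per condition, per the labels' protocols.

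Background was corrected with normexp (offset 50), which shrinks ratios of dim probes, and ratios were normalised by loess (span 0.3, 4 iterations) fitted with limma 3.58.1 (R 4.3.3) after giving the 1639 control spots weight 0. Outlier spots were left out and spots of a probe averaged. A probe was kept where 1 genotype was well above background on both arrays, and a gene was read by its brightest probe. For levels, the mean log2 intensities of the channels were quantile normalised between arrays (Aquantile), which left the ratios unchanged. Names came from RefSeq by accession (24375 probes), symbol (6301) or synonym (2426), and 8072 probes kept the file's name. Positions of probes are on mm8, per the file headers.

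Ratios were fitted with lmFit and eBayes (1 residual and 6.18 prior degrees of freedom), with the dye orientation as sign and Benjamini-Hochberg over all genes. Both arrays lay on 1 slide, and their number limits precision: the SE and p combine 2 pool pairs with a spread pooled over genes, not the spread between mice. The script was tested on simulated data.

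The text names all 10 genes, every other Rgs gene and Ccr7. Each other list gave its members past the threshold or, if none, the 2 with the largest absolute mean among those with the same direction on both arrays. For Rgs1, Rgs2 and Rgs13 the 3 genes nearest in both ratios were named. Some genes that this rule would name are not reported here.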

Additional observations from a re-analysis of the deposited data

How the results depend on the processing

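Of all genes, 18 passed limma's adjusted threshold (12 higher, 6 lower). The count was 0 with no background subtraction, no within-array normalization, the scanner program's log ratio, the deposited value table, the mean of all probes, and separate channels with no replicate block (89 to 1576 at an unadjusted p of 0.05). It was 4 after median centring (3 higher, 1 lower), 9 where every channel had to be above background (9 higher, 0 lower), 19 with no filter, 12 with plain background subtraction (11 higher, 1 lower), 73 when the prior was robust and followed intensity (26 higher, 47 lower) and 127 without scaled-up probes (44 higher, 83 lower). Of 185 genes tested from the other lists, immediate early genes and cell markers included, 1 passed, Klf4, where 0.102% of all genes did. In those alternatives 0 passed, other than no filter (1 of 248) and the last pair. With the trend 4 of 185 passed (Ccr7, Klf4, Pax5, Thy1), where 0.413% of all genes did. Without scaled-up probes 8 of 166 passed (among them Ccr7, Dusp1, Fos, Jun, Klf4, Thy1, Zfp36), where 0.758% of all genes did. Of the Rgs genes, 3 were higher on both arrays, against 1 after median centring and 0 where arrays were not normalised, and there the mean of Rgs3 was reversed to -0.18 but stayed 0.21 above the median of all genes. The causes were not tested. With 1 array left out, only a value remains, and Rgs1 lay between -1.30 and -0.88, Rgs2 between -1.13 and -0.99 and Rgs13 between 0.73 and 1.05. Each array pairs a knock-out with a wild-type pool, so the ratios are already blocked by array. Signal over background limits Rgs1 and Rgs16 most.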
